A study of Homo sapiens with 2 samples.

Results

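The transcripts described here belong to 10 genes of cellular iron handling: CYBRD1 and STEAP3, which reduce ferric iron, TFRC and SLC11A2, which bring iron into the cell, FTH1 and FTL, which store it, SLC40A1, which exports it, and ACO1, IREB2 and FBXL5, which sense it. The group was built around CYBRD1, which was selected on its large gefitinib over DMSO ratio on these same arrays, and the others were added by function. Its values are therefore a description, with no test. Of the 10 genes, 8 had at least 1 probe set paired with them alone, 22 probe sets in all, against 19775 genes and 41097 such probe sets on the array as a whole. FTH1 and IREB2 had none in the annotation used and were not analysed here. SLC40A1 was too dim to be measured, which left 7 genes and 16 probe sets.

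RNA came from H322c, an established human non-small cell lung cancer (NSCLC) line, after 4 days in RPMI medium with serum and either 1 µM gefitinib, an inhibitor of the EGFR tyrosine kinase, or 0.1% DMSO as the vehicle control. Cells had been plated 24 hrs earlier. Each condition was hybridized to 1 Affymetrix U133 Plus 2.0 array, so every difference below compares 2 RNA samples of 1 line. No p-value could be given, and precision is limited by having only these arrays. The epithelial genes EPCAM, CDH1, KRT8, KRT18 and KRT19 were all measured on both arrays, with signals from 14038.1 to 38923.3 on the DMSO array. KRT8 (30370.8 and 18382.6) and KRT18 (38923.3 and 22787.6) were 1.65-fold and 1.71-fold lower with gefitinib. The markers PTPRC, CD14 and CD163 of leukocytes stayed at or below 24.0 on either array. Of the endothelial and fibroblast markers, CDH5, COL1A2 and DCN were below 100 on both arrays. PECAM1 read 128.4 with DMSO and 78.0 with gefitinib. VWF (30.0 and 496.0, at least 4.96-fold) and COL1A1 (420.8 and 950.2 at its brightest probe set) were higher with gefitinib. The 3 measured COL1A1 probe sets had log2 ratios of gefitinib over DMSO from 0.14 to 1.57. HBB of red cells did not exceed 110.7. The part of these marker genes in the differences below was not tested.

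Iron reaches most cells bound to transferrin. TFRC carries it into endosomes, where STEAP3 reduces ferric to ferrous iron and SLC11A2 (DMT1) moves the ferrous iron into the cytosol. CYBRD1 (duodenal cytochrome b) does the reducing step at the plasma membrane and is best known from the intestinal brush border, where it works next to SLC11A2. Iron that is not used is stored in ferritin, a shell of FTH1 and FTL chains, or leaves through ferroportin (SLC40A1). ACO1 (IRP1) and IREB2 (IRP2) bind iron-responsive elements in mRNAs when iron is scarce, which stabilises TFRC mRNA and blocks translation of the ferritin mRNAs, and FBXL5 is the iron-binding subunit of the ubiquitin ligase that removes IREB2. Because part of this control acts on translation or protein stability, an mRNA array sees it only in part.

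CYBRD1 was the only one of the 7 measured genes past 2-fold. At its brighter probe set, 222453_at, the MAS5 signal (the probe set summary of the Affymetrix software, on a linear scale) was 105.8 with DMSO and 2279.1 with gefitinib. The second probe set, 217889_s_at, read 82.3 with DMSO and 326.7 with gefitinib. Both probe sets were thus near the floor of 100, to which lower signals were raised, with DMSO and clearly above it with gefitinib. The ratio was 21.5-fold (log2 ratio 4.43) at 222453_at and at least 3.27-fold (log2 ratio 1.71) at 217889_s_at, where the DMSO signal lay under the floor. Since bulk RNA was measured, more CYBRD1 mRNA in each cell and more cells that express it cannot be told apart. The probe sets shared a direction and differed in size by 2.72 on the log2 scale, so the size of the CYBRD1 difference depends on the probe set. With a floor of 50 the ratio of 217889_s_at was 3.97-fold. With a floor of 200 it was at least 11.4-fold at 222453_at and at least 1.63-fold at 217889_s_at, so the second probe set then no longer had to lie past 2-fold.

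The member signals just above and just below the floor were those of CYBRD1 222453_at (105.8 with DMSO) and TFRC 237215_s_at (93.9 with gefitinib). CYBRD1, which was selected on its ratio, ranked at 5 by log2 ratio among all 11223 measured genes. It ranked at 3 among the 10190 genes that reached the floor on each array. The genes with the nearest ratios over these 2 arrays were JDP2, a bZIP repressor of AP-1 (23.3-fold, 116.8 and 2721.9), and MYCL, a MYC family factor (22.4-fold, 137.6 and 3076.6), above it, and the oxygen-binding protein myoglobin, MB (20.2-fold, 477.4 and 9640.6), and TMT1A (19.0-fold, 130.6 and 2483.3) below it. With 1 array per condition no replicate shows how far the order of these 5 genes would hold.

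**Figure D1:**
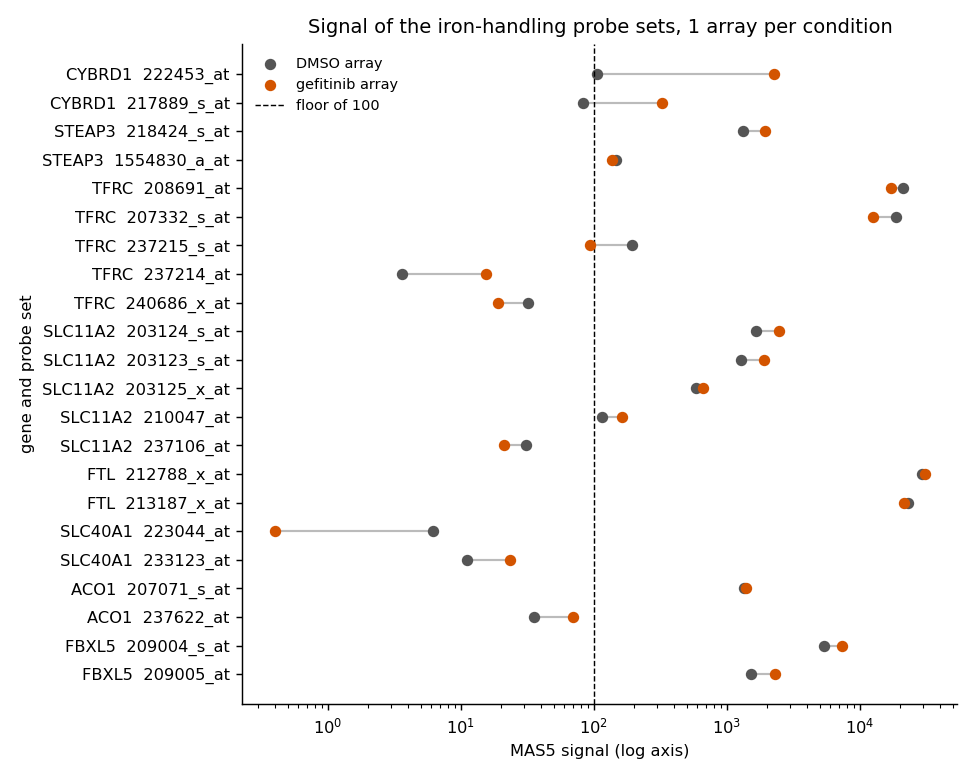
MAS5 signal (horizontal log axis) of all 22 probe sets of the 8 iron-handling genes with a probe set, with DMSO (grey) and with gefitinib (orange), from a single array each. A dashed line marks the floor of 100; the widest gap to the right of it is that of CYBRD1 222453_at, from 105.8 to 2279.1, and both SLC40A1 probe sets lie left of it.

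STEAP3, the endosomal ferrireductase, read 1336.8 with DMSO and 1924.7 with gefitinib at 218424_s_at, 1.44-fold higher (log2 ratio 0.53). At its dim probe set, 1554830_a_at, the signals were 147.6 and 138.1 (log2 ratio -0.10). The probe sets of STEAP3 did not share a direction, and their mean log2 ratio was 0.21. The log2 ratios of CYBRD1 and STEAP3 at their brightest probe sets differed by 3.90. A single scaling factor between the arrays does not alter this difference as long as no signal falls under the floor. With DMSO, CYBRD1 was close to the floor at 105.8.

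Of the uptake genes, TFRC, the transferrin receptor, was abundant with DMSO and somewhat lower with gefitinib. Probe set 208691_at read 21019.1 with DMSO against 17255.8 with gefitinib, a log2 ratio of -0.28 (1.22-fold lower). Probe set 207332_s_at read 18706.7 against 12557.5 (1.49-fold lower), and 237215_s_at read 194.5 against 93.9 (at least 1.94-fold lower). All 3 measured TFRC probe sets were lower on the gefitinib array. The bright 208691_at and 207332_s_at were within 2-fold, and 237215_s_at was 2.07-fold lower with a floor of 50. The other TFRC probe sets, 237214_at (3.6 and 15.5) and 240686_x_at (31.8 and 18.9), were below the floor on both arrays. TFRC was the only measured member with a log2 ratio below 0 at its brightest probe set, and 72.8% of all measured genes had a higher ratio.

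SLC11A2, the ferrous iron transporter of endosomes and the brush border, was higher with gefitinib at all 4 measured probe sets. Probe set 203124_s_at read 1672.2 with DMSO against 2477.7 with gefitinib, a log2 ratio of 0.57 (1.48-fold higher). At 203123_s_at the signals were 1279.0 and 1922.1, a log2 ratio of 0.59. The other measured probe sets, 203125_x_at (582.3 and 663.4) and 210047_at (115.8 and 162.0), had log2 ratios of 0.19 and 0.48, and 237106_at (31.1 and 21.1) was below the floor. SLC11A2 was within 2-fold at each of them, and 27.1% of all measured genes had a higher ratio than its brightest probe set. SLC11A2 and TFRC, which act in the same endosomal uptake route, had log2 ratios of opposite sign that differed by 0.85.

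FTL, the ferritin light chain, had high signals that hardly differed between the arrays. They were 29516.2 with DMSO and 30977.1 with gefitinib at 212788_x_at (log2 ratio 0.07) and 23023.6 and 21606.1 at 213187_x_at (log2 ratio -0.09). The probe sets went in opposite directions by less than 1.07-fold each. Both carry the suffix _x_at, by which Affymetrix marks probe sets with probes that can match other sequences, and ferritin has many processed pseudogenes, so their share in the FTL signal was not tested. FTL is also a target of the oxidative stress factor NRF2. HMOX1, another NRF2 target and the inducible enzyme that frees iron from heme, read 400.4 with DMSO and 235.2 with gefitinib, 1.70-fold lower. The activity of NRF2 was not tested.

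SLC40A1, the iron exporter, was far below the floor on both arrays, with signals of 6.2 and 0.4 at 223044_at and 11.1 and 23.3 at 233123_at for DMSO and gefitinib. No difference could be given for it at these signals. This does not show that ferroportin mRNA was absent, only that neither probe set detected it above the floor.

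Among the sensors, ACO1, the cytosolic aconitase that becomes an RNA-binding protein when it loses its iron-sulfur cluster, read 1348.3 with DMSO and 1403.9 with gefitinib at 207071_s_at, 1.04-fold higher (log2 ratio 0.06). Its second probe set, 237622_at, was below the floor with 35.8 and 70.0. FBXL5, the iron-binding ligase subunit, read 5399.8 and 7401.9 at 209004_s_at, 1.37-fold higher (log2 ratio 0.46), and 1518.9 and 2298.6 at 209005_at, 1.51-fold higher (log2 ratio 0.60). Both FBXL5 probe sets were higher with gefitinib, by less than 2-fold, and 32.1% of all measured genes had a higher ratio than the brighter one.

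Across the 7 measured genes, 1 was at least 2-fold higher with gefitinib, none was at least 2-fold lower, and 6 were within 2-fold. Of all 11223 measured genes, 13.3% were at least 2-fold higher and 6.2% at least 2-fold lower, so a count of 1 of 7 (14.3%) is near the background, and it was fixed by the choice of CYBRD1. The median log2 ratio of the 7 genes was 0.46, and that of all measured genes was 0.12. For scale, probe sets of the same gene, taken where neither signal was under the floor, had log2 ratios with an SD of 0.54 over all genes and of 0.23 over the 5 members with several such probe sets. It stands in for the error of a probe set and leaves out any spread between cultures. The log2 ratios of STEAP3, FBXL5, TFRC, FTL and ACO1 were smaller than the array-wide spread, that of SLC11A2 was slightly above it, and that of CYBRD1 at its brightest probe set was well above it. CYBRD1 was selected on this ratio. It is not among the 5 members, since 1 of its probe sets was under the floor with DMSO, and its own probe sets differed by 2.72.

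**Figure D2:**
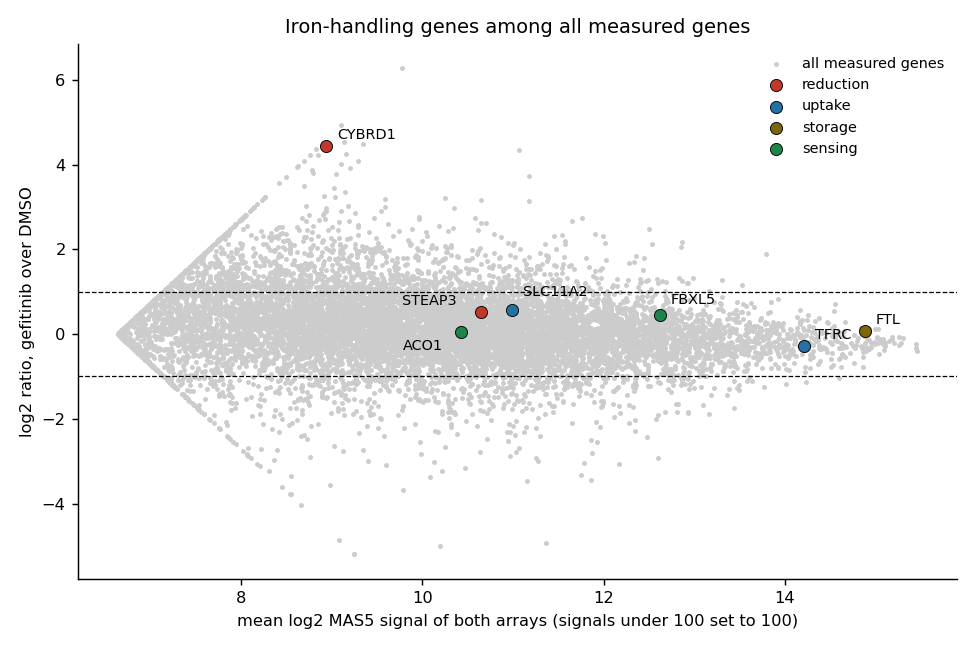
All 11223 measured genes (grey) and the 7 measured iron-handling genes (coloured by role), with the log2 ratio of gefitinib over DMSO on the vertical axis and the log2 MAS5 signal, averaged over both arrays, on the horizontal axis. Dashed lines mark 2-fold; CYBRD1 lies at 4.43 near the slanted edge where the DMSO signal meets the floor, and the other genes lie between -0.28 and 0.57.

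The ratios of the members were compared under other ways of scaling the arrays, since 1 factor per array decides whether a small ratio lies above or below 0. Over the 5 scalings tried, the log2 ratio of CYBRD1 ran from 4.23 to 4.61, that of SLC11A2 from 0.38 to 0.74, that of STEAP3 from 0.34 to 0.70 and that of FBXL5 from 0.27 to 0.63. These 4 genes stayed above 0, and TFRC, which ran from -0.47 to -0.07, stayed below it. FTL ran from -0.12 to 0.32 and ACO1 from -0.13 to 0.23, so neither had a settled sign. The median of all genes moved by 0.12 with centring on control probe sets, by 0.17 with GAPDH scaling and by -0.18 with scaling to the hybridization spike-ins. Relative to that median, CYBRD1, SLC11A2, STEAP3 and FBXL5 were the 4 members above it as deposited and under each of these 3 scalings, and FTL joined them with quantile normalization and with lowess correction.

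**Figure D3:**
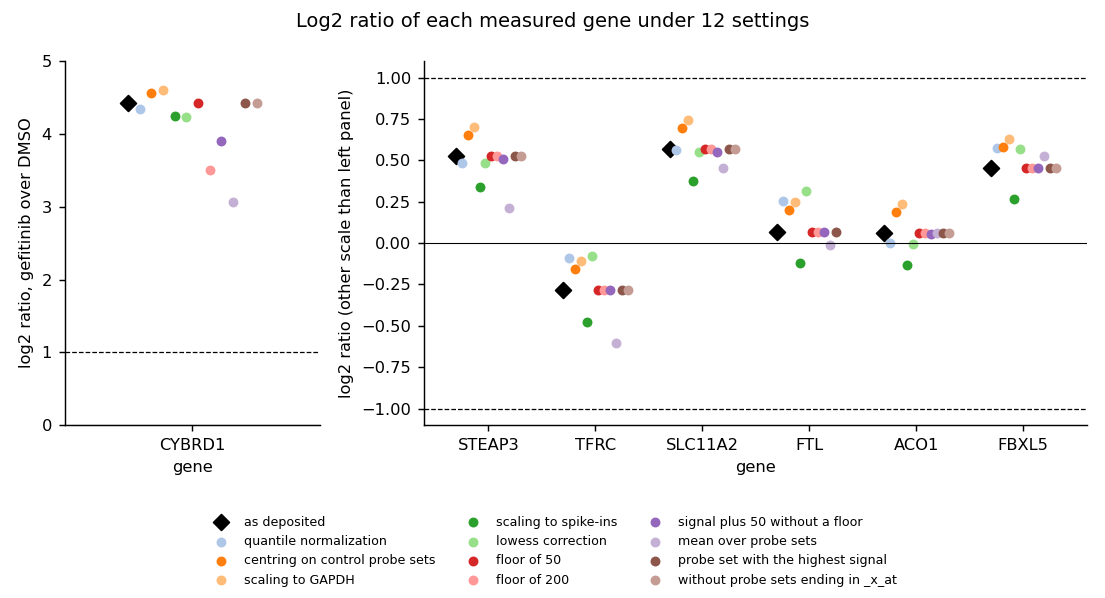
Log2 ratio of gefitinib over DMSO (vertical axes, which differ between the panels) of the 7 measured iron-handling genes as deposited (black diamonds) and under 11 other settings (coloured points). Dashed lines mark 2-fold. CYBRD1 runs from 3.07 (a bound, as the mean over probe sets) to 4.61, and none of the other 6 genes reaches 2-fold under any of these settings.

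The upstream sequences of the genes at either end of the range, CYBRD1 and TFRC, are shown because transcript levels are what was measured; no binding or promoter activity was. They were taken from RefSeq on GRCh38.p14, as the 250 bases before an annotated start, written 5′ to 3′ on the gene's strand. For CYBRD1 (chr2:171521983-171522232, plus strand) this is the first of 2 annotated starts, and the window before the second overlaps the first transcript and is not shown. For TFRC the window is chr3:196082091-196082340 on the minus strand. Capitals mark matches, on either strand, to the hypoxia response core ACGTG, the AP-1 site TGANTCA, the ETS core CCGGAA, the NRF2 element TGACNNNGC or the TATA box TATAAA.

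CYBRD1: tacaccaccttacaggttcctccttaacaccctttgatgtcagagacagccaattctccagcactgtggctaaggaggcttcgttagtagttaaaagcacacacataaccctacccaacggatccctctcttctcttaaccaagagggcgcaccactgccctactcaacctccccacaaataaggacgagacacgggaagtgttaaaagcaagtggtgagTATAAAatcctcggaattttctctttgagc

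TFRC: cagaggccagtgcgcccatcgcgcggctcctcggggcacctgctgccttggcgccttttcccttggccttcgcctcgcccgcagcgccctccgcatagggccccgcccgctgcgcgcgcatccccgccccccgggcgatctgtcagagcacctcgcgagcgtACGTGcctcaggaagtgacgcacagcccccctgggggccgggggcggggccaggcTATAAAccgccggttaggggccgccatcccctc

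In the CYBRD1 window the only match was a TATA box that begins 30 bases before the start, and 47.6% of its bases were G or C. The TFRC window held a TATA box 33 bases before the start and a hypoxia response core 88 bases before it, with 74.4% G or C. Of all 35116 RefSeq promoter windows of this length, 10.7% held TATAAA, 18.5% ACGTG, 6.57% TGANTCA, 14.5% CCGGAA and 10.9% TGACNNNGC. Over the 14 windows of 9 members (FTH1 had none in the table), TATAAA was found in 2, ACGTG in 3 (TFRC, FTL and FBXL5), and TGANTCA (an SLC11A2 window), CCGGAA (the second CYBRD1 window) and TGACNNNGC (FBXL5, overlapping its ACGTG) in 1 each. A match is a description of these letters and not a binding site.

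The rest of the pathway was described from 9 lists of 90 further iron and heme genes, of which 66 were measured. Of these, 7 (10.6%) were at least 2-fold higher with gefitinib and 4 (6.06%) at least 2-fold lower, close to the shares of all measured genes, and the median log2 ratio was 0.05. The split of 7 higher and 4 lower was 12 and 3 with GAPDH scaling, 10 and 3 with centring on control probe sets, 4 and 5 with quantile normalization, 3 and 5 with lowess correction, and 3 and 8 with spike-in scaling.

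None of the 6 measured relatives of CYBRD1 and STEAP3 was at least 2-fold higher. STEAP1, a STEAP family member without the NADPH-binding domain of the others, read 2662.5 with DMSO against 989.2 with gefitinib. Its log2 ratio of -1.43 (2.69-fold lower) ran from -1.62 to -1.25 over the scalings. The cytochrome b561 proteins CYB561A3, CYB561 and CYB561D1, of the same family as CYBRD1, had log2 ratios of 0.83, 0.74 and 0.62. The probe sets of CYB561 ran from -0.30 to 0.74. CYBRD1 was thus the only ferric reductase or relative measured here with a ratio past 2-fold upward as deposited, and with GAPDH scaling CYB561A3 reached a log2 ratio of 1.01.

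Of 7 other uptake genes measured, 1 was at least 2-fold higher and 1 at least 2-fold lower (14.3% each, beside 13.3% and 6.2% of all measured genes). SLC25A37 (mitoferrin 1), which carries iron into mitochondria, read 953.5 with DMSO and 334.3 with gefitinib, 2.85-fold lower, and its 6 measured probe sets ran from -1.83 to 0.04 in log2 ratio. LCN2, a secreted protein that binds iron-carrying siderophores, read 50.7 and 217.0, at least 2.17-fold higher. Its log2 ratio went down to 0.91 over the scalings and ran from 0.12 to 2.10 over all settings. LCN2 was measured only through its gefitinib signal, so it could be counted only as higher. With a floor of 200, no gene of this list was at least 2-fold higher. The log2 ratio of MELTF, a transferrin homologue on the cell surface, was 0.90 (0.30 at its other probe set) and went up to 1.08 over the scalings. That of the metal transporter SLC39A8 (ZIP8) was -0.84 and went down to -1.03.

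Of 5 measured genes of the ferroxidase and hepcidin list, 2 (40.0%) were at least 2-fold higher, also under every scaling. The share of all measured genes was 13.3%. CP, ceruloplasmin, the secreted ferroxidase that works with ferroportin, read 51.4 with DMSO and 575.7 with gefitinib at 227253_at, at least 5.76-fold higher. Its second probe set had a log2 ratio of at least 2.50. CP was measured only through its gefitinib signals, so it could be counted only as higher. SMAD6, an inhibitory SMAD of the BMP pathway that controls hepcidin, read 129.6 and 427.9, 3.30-fold higher. BMP6, the ligand that signals iron load to hepcidin, read 323.0 and 168.6 (log2 ratio -0.94, from -1.20 to -0.76 over the scalings), and BMP2 had a log2 ratio of 0.20. Hepcidin itself, HAMP, was below the floor on both arrays.

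Heme synthesis genes had a median log2 ratio of 0.68 over 9 measured genes (0.42 with the mean over probe sets), beside 0.12 for all measured genes. Of the 9, 3 (33.3%) were at least 2-fold higher and none lower, beside 13.3% and 6.2% of all measured genes. ALAD, the second enzyme of the pathway, read 451.3 with DMSO and 1954.5 with gefitinib, 4.33-fold higher, with 0.47 as the log2 ratio of its other probe set. CPOX, coproporphyrinogen oxidase, read 465.4 and 960.6, 2.06-fold higher. FECH, which inserts iron into protoporphyrin, read 1331.9 and 2679.1, 2.01-fold higher, and its 3 probe sets ran from 1.01 to 1.78. Past 2-fold upward, the heme synthesis list held 1 gene under spike-in scaling, lowess correction, a pseudocount of 50 without a floor or quantile normalization, and 4 with centring on control probe sets or GAPDH scaling. UROS had a log2 ratio of 0.91 at its brightest probe set, 1.09 with GAPDH scaling, and -0.63 at its other probe set.

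Of 6 subunits and partners of the FBXL5 ligase, 2 (33.3%) were at least 2-fold lower, beside 6.2% of all measured genes. CIAO2B, of the cytosolic iron-sulfur targeting complex that also binds FBXL5, read 10089.0 and 4842.4, 2.08-fold lower, and its log2 ratio went up to -0.88 over the scalings, so that this list held 1 gene past 2-fold with quantile normalization, lowess correction, centring on control probe sets or GAPDH scaling. CIAO1, its partner, was 2.87-fold lower at its brightest probe set (1693.8 and 589.4), but its 3 probe sets ran from -1.52 to 1.04 and their mean log2 ratio was 0.17. The scaffold CUL1 had log2 ratios of 0.80 and -0.25 at its 2 probe sets, and SKP1, which holds the F-box, had 0.15 at its brightest. Of 16 measured genes of iron-sulfur cluster assembly, 15 were within 2-fold, and CIAO3 (188.6 and 420.9) was 2.23-fold higher. Its log2 ratio went down to 0.92 over the scalings, and no gene of this list was at least 2-fold higher with spike-in scaling, lowess correction, a pseudocount of 50 without a floor or quantile normalization. NUBP1 and LYRM4 had log2 ratios of -0.92 and -0.73, and that of IBA57, -0.65, is a bound.

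The remaining lists held no gene past 2-fold as deposited. The list of chaperones and ferritin turnover held 1 gene higher with GAPDH scaling and 1 lower with spike-in scaling. That of heme breakdown and transport held 1 higher with GAPDH scaling, centring on control probe sets or a pseudocount of 50 without a floor. Among 7 measured iron chaperones and ferritin turnover genes, NCOA4, the receptor that takes ferritin to the lysosome, read 11799.5 with DMSO and 11473.9 with gefitinib. The largest ratios in that list were those of PROM2 (log2 ratio 0.84), which drives ferritin out of the cell in vesicles, and GLRX3 (-0.81), a carrier of iron-sulfur clusters, followed by HERC2 (0.30) and PCBP2 (0.23). Of the other transcripts with an iron-responsive element, EPAS1 (HIF2 alpha) had a log2 ratio of -0.30 and the probe sets of CDC42BPA had opposite signs (0.46 at the brightest and -0.61). Among 8 measured genes of heme breakdown and transport, the heme transporters SLC48A1 (log2 ratio 0.88) and SLC46A1 (0.76) and the biliverdin reductase BLVRA (0.39) were above 0, and HMOX1 was at -0.77.

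**Figure D4:**
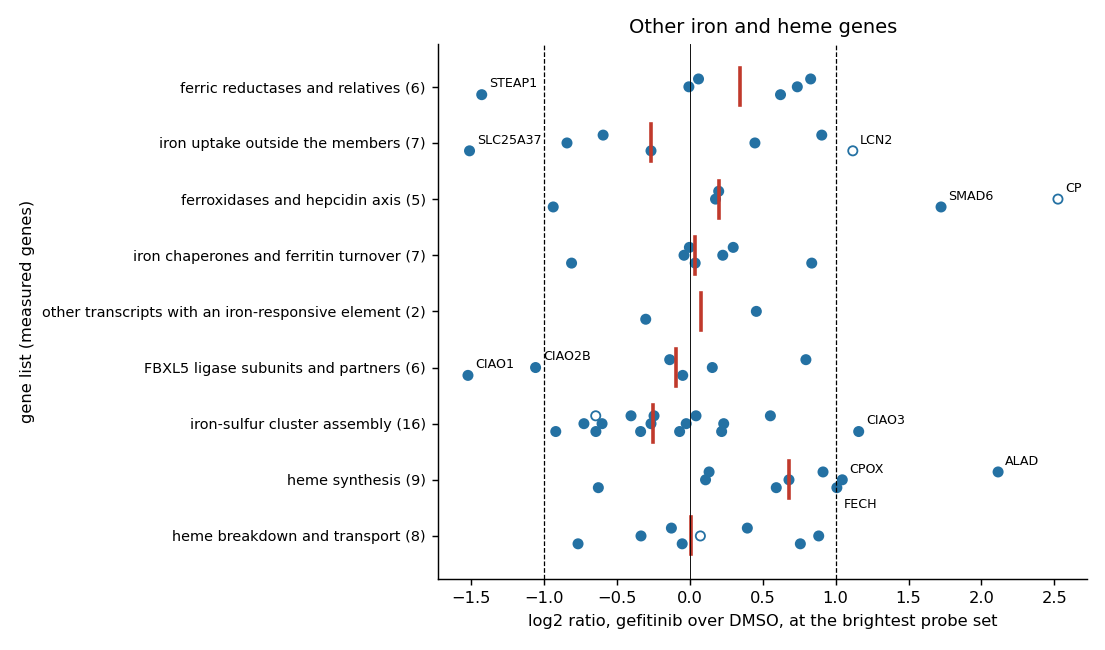
Log2 ratio of gefitinib over DMSO (horizontal axis) for the 66 measured genes of 9 further iron and heme lists, each followed by how many genes were measured. Filled points are ratios of signals that both reached the floor, open points are bounds, red bars are list medians, and dashed lines mark 2-fold; the named genes are the 11 past 2-fold, from CIAO1 at -1.52 to CP at 2.53.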

How the data were processed

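The authors deposited MAS5 signal intensities, on a linear scale, for 54675 probe sets on 2 arrays. The submitters' processing notes name MAS5 without a version. MAS5 multiplies each array by 1 factor (the 2% trimmed mean was 500.1 on each), so a shift common to most transcripts cannot be seen. Groups were taken from the treatment labels.

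Only the 41097 probe sets that the platform annotation pairs with 1 gene were used, which left out 1801 with several genes and 11777 it does not list. Symbols were updated by gene identifier (41043 matched GRCh38.p14). Signals under 100 were raised to 100, a gene counted as measured from a signal of 100 on either array, and its brightest probe set, by mean log2 signal, gave its value. "At least" marks a bound with 1 signal under 100. No test was run. The members and lists were chosen with earlier results of these data known. Named are all members, up to 4 measured genes of each list with the largest absolute log2 ratio, the 2 genes on either side of CYBRD1 in rank and the cell type markers, and outside this rule, after their values were seen, NCOA4 and HAMP. The 3' to 5' signal ratio was 0.95 (DMSO) and 1.01 (gefitinib) for the GAPDH control, and 1.19 and 1.36 for the ACTB control.

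The scalings tried were quantile normalization, centring on 100 control probe sets, GAPDH, 18 spike-in probe sets and lowess (span 0.3). Floors of 50 and 200, a pseudocount of 50 in place of the floor, other choices of probe set and thresholds of 1.5-fold and 3-fold were also tried. The procedure was tested on simulated data. Work was done in Python 3.11.15 (numpy 2.4.6, scipy 1.17.1, pandas 2.3.3, matplotlib 3.10.9, statsmodels 0.14.6).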

Additional observations from a re-analysis of the deposited data

How the results depend on the processing

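CYBRD1 was the only measured member at least 2-fold higher, and none was at least 2-fold lower, under all 13 alternatives. Its log2 ratio moved by more than the spread between probe sets with a floor of 200 (a bound of 3.51) and as the mean over probe sets (a bound of 3.07). Without probe sets ending in _x_at, FTL had no measured probe set. The number of genes of the other iron lists at least 2-fold higher, 7 as deposited, was 4 with quantile normalization, 12 when scaled to GAPDH, 3 when scaled to spike-ins and 3 with lowess correction. The number at least 2-fold lower, 4 as deposited, was 8 when scaled to spike-ins. With a threshold of 1.5-fold these numbers were 18 and 15, and with one of 3-fold they were 3 and 0, which follows from the threshold. The cause of the differences between scalings was not tested. No paired analysis was possible because each condition had 1 array. Signals near or under the floor limit CYBRD1 with DMSO, 237215_s_at of TFRC with gefitinib, and SLC40A1 on both arrays.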
